A study of Mus musculus with 4 samples.

Results

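Fabp3, Fabp5 and Fabp7 encode the heart-type, epidermal and brain fatty acid-binding proteins. These 3 genes were chosen by their symbols from the 21832 genes listed for cells sorted from newborn mouse retina, with no threshold on their measured values. Counts over all genes use the 12943 genes, all 3 members among them, that reached 1 FPKM in 1 library or more. FPKM, the unit of all levels, counts sequenced fragments relative to transcript length and library size. Comparisons between libraries still depend on the scaling, and those between genes on reads shared with other places in the genome.

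Retinas came from mice of strain FVB/N (per the labels) that carried destabilized EGFP under a promoter fragment of Hes1, a Notch target that is active in retinal progenitors and Müller glia. The authors' methods name ICR mice and do not state the background of the transgenic line. EGFP-positive cells (pHes1_EPCs) and EGFP-negative cells (pHes1_ENCs) were separated by a cell sorter at postnatal day 1 (P1) and day 4 (P4). No animal received a treatment, and both fractions at both ages came from the transgenic line. RNA-seq covered each fraction and age once, in 4 libraries, so groups had no replicates, no test was run and every difference is a description of these libraries. The number of animals behind a library is not given in the sources used here. A lower level can come from fewer cells that use a gene or from less RNA in each cell, and these cannot be told apart in sorted bulk RNA. Age likewise cannot be told apart from library.

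Fatty acid-binding proteins are small cytosolic carriers. Each folds into a barrel that encloses a fatty acid, keeps it soluble and delivers it to membranes, to enzymes or to nuclear receptors. Fabp7, also called brain lipid-binding protein, prefers long polyunsaturated fatty acids such as docosahexaenoic acid and is widely used as a marker of radial glia. Fabp5 is found in skin, neurons and many other cells and carries ligands to the nuclear receptor encoded by Ppard. Fabp3 is the main form in heart and skeletal muscle and is also present in neurons.

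In NCBI37/mm9 all 3 genes lie on the plus strand and have 4 exons. The line of Fabp3 spans chr4:129986022-129992707, that of Fabp5 chr3:10012606-10016610 and that of Fabp7 chr10:57504729-57508256. The annotated Zcchc17 overlaps Fabp3, although no other line of the expression tables does, and no other annotated gene overlaps Fabp5 or Fabp7. The coding sequences are 402, 408 and 399 bases long, in the order Fabp3, Fabp5 and Fabp7. Fabp3 and Fabp7 were the closest pair, with 66.7% of aligned coding bases alike, against 55.7% for Fabp3 and Fabp5 and 55.1% for Fabp5 and Fabp7. The start of each coding sequence is printed to show how the members differ. Capitals mark the 67 bases that are alike in all 3 within the stretch, which covers the coding part of exon 1 and continues in exon 2 (chr4:129986022-129989605, chr3:10012640-10015041 and chr10:57504815-57505382, plus strand, introns left out).
Fabp3: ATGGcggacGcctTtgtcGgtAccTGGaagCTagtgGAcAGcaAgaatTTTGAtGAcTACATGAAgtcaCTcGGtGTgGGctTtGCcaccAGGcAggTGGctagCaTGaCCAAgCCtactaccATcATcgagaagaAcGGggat
Fabp5: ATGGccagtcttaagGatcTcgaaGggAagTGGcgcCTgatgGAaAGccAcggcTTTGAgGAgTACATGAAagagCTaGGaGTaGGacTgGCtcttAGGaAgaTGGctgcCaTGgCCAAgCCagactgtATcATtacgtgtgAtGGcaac
Fabp7: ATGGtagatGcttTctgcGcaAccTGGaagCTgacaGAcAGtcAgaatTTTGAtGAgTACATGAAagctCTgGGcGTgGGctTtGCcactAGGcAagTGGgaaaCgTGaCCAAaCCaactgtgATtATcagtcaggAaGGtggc
Shared bases were scattered along the whole stretch, mostly in short runs.

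The reads were 36 bases long, and the authors let a read align at up to 50 positions, so copies elsewhere in the genome bear on each level. Fabp7 had no copy beyond partial matches to Fabp3 and to a copy of Fabp3, and 0 of the 769 windows of 36 bases in its transcript were found exactly in a copy. Fabp3 had 2 copies, of which the closest lies on the minus strand at chr10:86194498-86195251, is annotated as the pseudogene Fabp3-ps1 and was 99.1% identical over 754 bases. Fabp5 had 6 copies, among them the pseudogene Gm6166 on the plus strand at chr9:57331721-57332398, which was 98.7% identical over 678 bases. A copy held 66.5% of the windows of Fabp3 and 54.8% of those of Fabp5. With its default options, as the authors ran it, Cufflinks divides a read with several positions evenly among them, and an even split would leave 66.8% of the reads at Fabp3 and 64.4% at Fabp5. The levels of Fabp3 and Fabp5 are therefore uncertain in scale, whereas that share is 100% for Fabp7. The same split applies to all 4 libraries, but a transcribed copy would also add reads to its parent gene, which was not tested.

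Fabp7 was among the most abundant transcripts of pHes1_ENCs and was lower in pHes1_EPCs at both ages. At P1 it stood at 573 FPKM in pHes1_ENCs and 20.4 FPKM in pHes1_EPCs, and at P4 these levels were 760 and 235 FPKM. Both EGFP-negative libraries were high, the EGFP-positive library at P1 stood far below the others, and that at P4 lay between. By FPKM it ranked number 14 of the 12943 genes in P1 pHes1_ENCs, 3625 in P1 pHes1_EPCs, 17 in P4 pHes1_ENCs and 200 in P4 pHes1_EPCs. With the libraries ordered by level, the 95% intervals that Cufflinks gave did not overlap between neighbours and were 549.5 to 578, 414 to 437, 168 to 183 and 13.6 to 18.1 from the highest library to the lowest.

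These intervals cover counting error only and say nothing of the spread between animals or sorts. For Fabp7 and Fabp5 the deposited FPKM also lies above its own interval, 1.29 to 1.35 times the midpoint for Fabp7 and 1.21 to 1.25 times for Fabp5. This was seen on 9.03% to 10.4% of the lines of a library, and its cause was not tested. Because the factor was nearly the same in all 4 libraries, taking midpoints in place of FPKM left the difference of Fabp7 at -4.66 at P1 and -1.68 at P4 on the log2 scale.

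**Figure D1:**
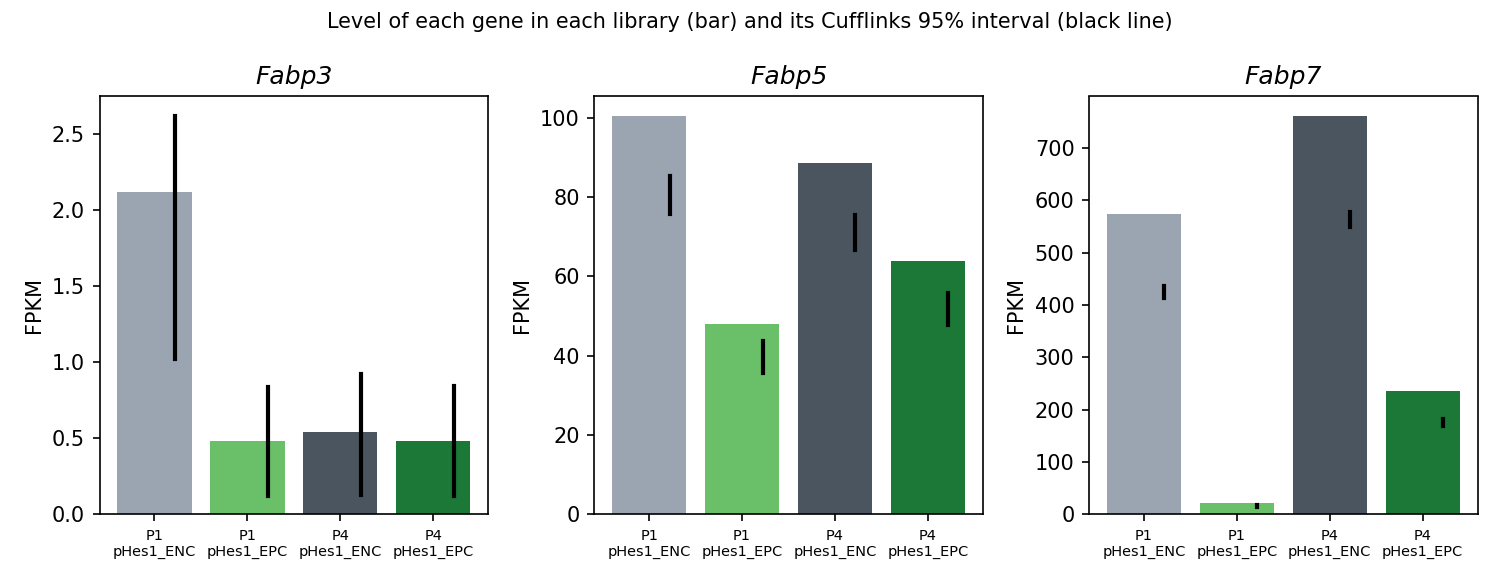
FPKM (vertical axis, a separate scale for each gene) of Fabp3, Fabp5 and Fabp7 in the 4 libraries, with bars for the FPKM and black lines for the 95% interval of Cufflinks, which covers counting error only. Fabp7 falls to 20.4 in P1 pHes1_EPCs and stands at 573 or above in both pHes1_ENC libraries, and for Fabp5 and Fabp7 the interval lies below the top of the bar.

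The question asked of the sorted cells was how the Hes1-expressing fraction differs from the rest of the retina as Müller glia form. Differences are those of log2(FPKM + 1), pHes1_EPCs minus pHes1_ENCs, and a gene was counted as past 2-fold when the difference exceeded 1 in size. For Fabp7 the difference was -4.75 at P1 (-4.91 to -4.44 from the Cufflinks intervals) and -1.69 at P4 (-1.78 to -1.58). Without a pseudocount, the FPKM was 28.2 times higher in pHes1_ENCs than in pHes1_EPCs at P1 (22.9 to 32.2) and 3.24 times higher at P4 (3.01 to 3.45). Fabp7 was thus more than 2-fold lower at both ages, which held for 11.5% of all 12943 genes at P1 and for 9.15% at P4. At P1, 12 genes including Fabp7 had a difference as low or lower, and at P4 there were 434. The gap between the fractions was smaller at P4 by 3.06 on the log2 scale.

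As deposited, Fabp7 was higher at P4 than at P1 in both fractions, and by more in the EGFP-positive one. Between P1 and P4 the FPKM of Fabp7 was 11.5 times higher in pHes1_EPCs (9.28 to 13.5), a difference of 3.46 on the log2(FPKM + 1) scale. Over all genes, 7.04% were past 2-fold higher and 4.33% past 2-fold lower in this comparison, and 21 genes including Fabp7 had a difference as high or higher. In pHes1_ENCs the FPKM was 1.33 times higher at P4 (1.26 to 1.40), a log2 difference of 0.41 that stayed within 2-fold, against 4.67% of all genes past 2-fold higher and 10% past 2-fold lower. Quantile normalization turned this last value to -0.11, so its direction depends on the scaling. The comparisons between ages and those between fractions use the same 4 libraries and are not independent of each other.

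**Figure D2:**
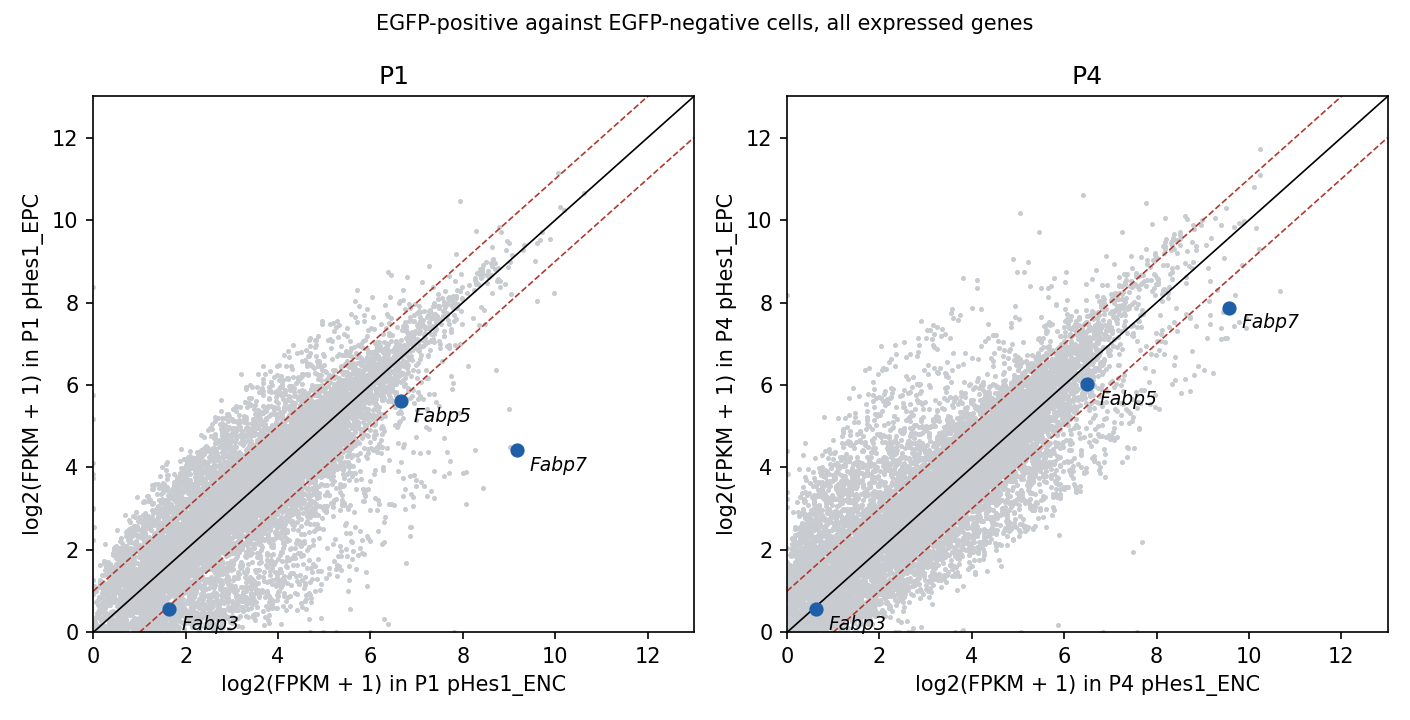
log2(FPKM + 1) in pHes1_EPCs (vertical axis) against log2(FPKM + 1) in pHes1_ENCs (horizontal axis) for the 12943 genes (grey) at P1 (left) and P4 (right), with the 3 members in blue, the line of equal levels in black and 2-fold lines dashed. Fabp7 lies far below the lower dashed line at P1, at a difference of -4.75, and nearer to it at P4, at -1.69, whereas Fabp5 sits at that line at P1 and inside it at P4.

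Because Fabp7 is a radial glia marker in brain, its levels were set beside a list of 12 radial glia genes. Of that list, 8 genes were past 2-fold higher in pHes1_EPCs at P1 and 1 was lower, and 11 were higher at P4 and 0 lower. The gene that was lower at P1 is Tnc, which encodes tenascin C, an extracellular matrix protein. Pax6, of the same list, was also lower in pHes1_EPCs at P1 but within 2-fold, with differences of -0.95 at P1 and 2.12 at P4. Over all genes, 10.3% were past 2-fold higher at P1 and 16.6% at P4. Hes1 itself, whose promoter fragment drives the reporter, read 16.6 FPKM in P1 pHes1_ENCs and 105 in P1 pHes1_EPCs, with 3.59 and 93.5 in the P4 pair, so the fractions carry the labels that the reporter implies. Vim, which encodes vimentin, read 65.2 and 200 at P1 and 30.7 and 430 at P4. Fabp7 thus had the opposite order of fractions to Hes1 and Vim at both ages.

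The summed FPKM of the 12 radial glia genes was 718 in P1 pHes1_ENCs, 1470 in P1 pHes1_EPCs, 311 in P4 pHes1_ENCs and 1957 in P4 pHes1_EPCs, and none of them was at 0 in any library. Fabp7 is also used by astrocytes. The 6 astrocyte genes summed to 9.06, 7.32, 28.0 and 59.2 in the same library order. Past 2-fold higher in pHes1_EPCs were 0 of the 6 at P1 and 2 at P4, beside 10.3% and 16.6% of all genes. These 2 were Aldoc, at 43.9 FPKM in P4 pHes1_EPCs, and Pdgfra, at 11.1. Gfap, the intermediate filament gene of astrocytes, reached at most 1.21 FPKM and Pax2, a marker of optic nerve head astrocytes, at most 1.03. The part of astrocytes in the level of Fabp7 was not tested.

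Rod precursor genes were also lower in pHes1_EPCs. Of the 6 genes of the rod list, 5 were past 2-fold lower at P1, beside 11.5% of all genes, and all 6 at P4, beside 9.15%. No list member was at 0, and their summed FPKM was 676 in P1 pHes1_ENCs, 40.2 in P1 pHes1_EPCs, 3604 in P4 pHes1_ENCs and 687 in P4 pHes1_EPCs. Crx, the homeobox gene of photoreceptor precursors, differed between the fractions by -4.17 (P1) and -2.39 (P4) on the log2 scale and was higher by 3.25 in pHes1_EPCs at P4 than at P1, beside -4.75, -1.69 and 3.46 for Fabp7. In pHes1_ENCs, however, the summed rod genes were several times higher at P4, whereas Fabp7 differed by 0.41 on the log2 scale. The 8 amacrine and horizontal cell genes summed to 246, 33.3, 91.5 and 32.1 in the same order of libraries. Of the 7 that passed the filter, 6 were past 2-fold lower in pHes1_EPCs at P1 and 5 at P4. Gad1 and Onecut1 reached 1 FPKM only in pHes1_ENCs, so these counts are not read against the share of all genes. The part of rod precursors, amacrine cells or other EGFP-negative neurons in the level of Fabp7 was not tested.

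The genes with the most similar pattern to Fabp7 were Neurod4, Neurod1 and Cplx3. Likeness was the Euclidean distance between log2(FPKM + 1) profiles over the 4 libraries, each centred on the mean of its gene. Neighbours were sought among the 8404 genes that reached 10 FPKM in 1 library or more, leaving out Fabp5 and Fabp7, which are among them. Neurod4, a proneural bHLH transcription factor gene, was nearest at a distance of 0.245. Its FPKM was 347 in P1 pHes1_ENCs, 10.4 in P1 pHes1_EPCs, 437 in P4 pHes1_ENCs and 113 in P4 pHes1_EPCs, the same order of libraries as for Fabp7. Neurod1, another bHLH gene, followed at 0.471, with FPKM of 521, 21.6, 974 and 195. Cplx3, which encodes a complexin of retinal synapses, was at 0.627, with 45.7, 2.04, 94.2 and 21.9. With profiles divided by their standard deviation, none of these 3 genes remained among the nearest 3 of Fabp7, and the corresponding count was also 0 for Fabp5 and for Fabp3. Profiles over 4 libraries are a description only.

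**Figure D3:**
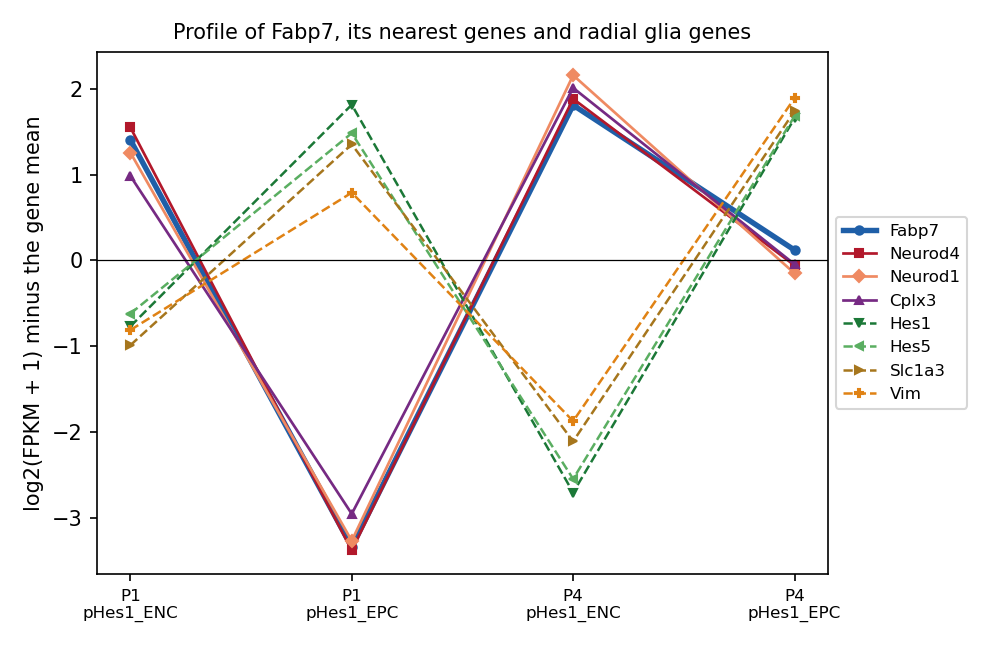
log2(FPKM + 1) minus the mean of the gene over the 4 libraries (vertical axis) for Fabp7 and its 3 nearest genes (solid lines) and for 4 radial glia genes (dashed lines). Fabp7, Neurod4, Neurod1 and Cplx3 all have their lowest point in P1 pHes1_EPCs, where Hes1, Hes5, Slc1a3 and Vim are above their means.

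The promoter of Fabp7 was searched for letters bound by factors of the Notch pathway and by nuclear receptors, because Notch signaling is known to drive Fabp7 in radial glia and because the sort used a Notch target. The sequence printed is the part of the 250 bases before the RefSeq start (promoter table of GRCm38.p6) that precedes the annotated transcript in NCBI37/mm9, where it matches at a single place, chr10:57504479-57504686 on the plus strand. Capitals mark the matches.
Fabp7 upstream: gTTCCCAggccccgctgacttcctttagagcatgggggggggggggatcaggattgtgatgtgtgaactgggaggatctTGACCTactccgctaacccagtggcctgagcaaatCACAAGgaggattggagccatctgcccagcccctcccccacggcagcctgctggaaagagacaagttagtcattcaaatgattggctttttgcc
TTCCCA at -249 to -244 is TGGGAA, the letters of CSL, the Notch effector, on the minus strand. TGACCT at -171 to -166 is AGGTCA, a nuclear receptor half-site, on the minus strand. CACAAG at -136 to -131 is CACNAG, the N box bound by Hes repressors, on the plus strand. Positions are counted back from the RefSeq start, both strands were searched, and none of the matches overlapped. CACGTG, the class B site and E box, was not among the letters of this window. These motifs are short, and in 32851 promoters of the same length TGGGAA was found in 21.6%, CACNAG in 36.7%, AGGTCA in 14.0% and CACGTG in 6.02%. A match is a description of letters and not evidence of binding. The 250 bases before Fabp3 held none of the 4 motifs.

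Fabp5 was expressed in all 4 libraries and differed less between them than Fabp7. At P1 it read 100 FPKM in pHes1_ENCs and 48.0 in pHes1_EPCs, and at P4 88.7 and 63.8 FPKM. Both EGFP-negative libraries were above both EGFP-positive libraries, and the spread over the 4 libraries was far smaller than for Fabp7. In the order P1 pHes1_ENCs, P4 pHes1_ENCs, P4 pHes1_EPCs and P1 pHes1_EPCs the Cufflinks intervals were 75.7 to 85.4, 66.6 to 75.5, 47.6 to 55.9 and 35.5 to 43.6. Neighbours did not overlap, though the first pair were apart by less than the width of either interval. It was Fabp5, and not Fabp7, that had the highest FPKM of the 3 members in P1 pHes1_EPCs, with 48.0 against 20.4.

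The log2 difference of Fabp5 between the fractions was -1.05 at P1 (-1.24 to -0.78) and -0.47 at P4 (-0.65 to -0.25). The FPKM was 2.09 times higher in pHes1_ENCs at P1 (1.73 to 2.41) and 1.39 times higher at P4 (1.19 to 1.59), so Fabp5 was just past 2-fold at P1, with an interval that reaches inside 2-fold, and within it at P4. Between the ages it was 1.33 times higher in pHes1_EPCs at P4 (1.09 to 1.57), a log2 difference of 0.40. In pHes1_ENCs the log2 difference was -0.18 (-0.35 to -0.0032), so the sign of the difference between the ages was not the same in both fractions. The gap between the fractions was smaller at P4 by 0.58. Fabp5 and Fabp7 were past 2-fold lower in pHes1_EPCs at P1, beside 11.5% of all genes. Fabp7 was the single member past 2-fold at P4, beside 9.15%. Fabp3 was also past 2-fold lower at P1, but it reached 1 FPKM only in P1 pHes1_ENCs, so its call is not set against that share. Quantile normalization and interval midpoints left Fabp3 within 2-fold at P1, at -0.85 and -0.93.

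The nearest profiles to Fabp5 were those of Tspan5, which encodes a tetraspanin, Csnk1e, which encodes casein kinase 1 epsilon, and Fam164a, at distances of 0.0510, 0.0569 and 0.0837. Csnk1e, the most abundant of them, had an FPKM of 74.2, 35.5, 66.1 and 49.5 in P1 pHes1_ENCs, P1 pHes1_EPCs, P4 pHes1_ENCs and P4 pHes1_EPCs. Fabp5 is also known in endothelial cells. Pecam1 and Cdh5, defining genes of these cells, reached at most 0.142 and 0.0705 FPKM. The 7 endothelial genes summed to 63.8, 213, 15.4 and 194 FPKM in the same order, most of it from Kdr, with 209 FPKM in P1 pHes1_EPCs. Cldn5, the only endothelial gene besides Kdr to pass the filter, read 16.3, 3.49, 2.59 and 4.06 FPKM across these libraries. Its log2 difference between the fractions was thus -1.95 for P1, the sign of Fabp5, but 0.50 for P4. Kdr had the opposite sign to Fabp5 each time, with 2.13 and 3.87. The part of endothelial cells in the level of Fabp5 was not tested.

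Fabp3 was low in all 4 libraries. Its FPKM was 2.12 in P1 pHes1_ENCs, 0.479 in P1 pHes1_EPCs, 0.539 in P4 pHes1_ENCs and 0.484 in P4 pHes1_EPCs. P1 pHes1_ENCs stood above the other 3 libraries, which could not be told apart. The Cufflinks interval in P1 pHes1_ENCs was 1.02 to 2.61, and the other intervals were 0.119 to 0.834, 0.123 to 0.921 and 0.120 to 0.842, in the same order. They reach 75.0% to 76.5% to either side of their midpoints, a width that corresponds to about 7 reads.

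On the log2(FPKM + 1) scale the difference of Fabp3 between pHes1_EPCs and pHes1_ENCs was -1.08 at P1, with a range of -1.69 to -0.14. The ratio of FPKM was 4.42, with a range of 1.23 to 21.9, and the pseudocount makes the log2 value smaller than this ratio. At P4 the difference was -0.05, with overlapping intervals. Between the ages the difference, P4 minus P1, was -1.02 in pHes1_ENCs (-1.69 to -0.08), past 2-fold lower, and 0.0046 in pHes1_EPCs. Fabp3 reached 1 FPKM only in P1 pHes1_ENCs, so its calls are not set against the 10% of all genes that were past 2-fold lower between the ages there, nor against the share between the fractions. Quantile normalization and interval midpoints left the P1 difference between the fractions within 2-fold, at -0.85 and -0.93, and likewise the difference between the ages in pHes1_ENCs, at -0.70 and -0.89. The nearest profiles to Fabp3 were those of BC005764, Armcx2 and Dapk1, at distances of 0.101, 0.107 and 0.154, and all 3 were more abundant than Fabp3 in every library.

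The wider family of intracellular lipid-binding proteins includes the remaining Fabp genes, Pmp2, and carriers of retinol (Rbp2, Rbp7) and retinoic acid (Crabp1, Crabp2). Of the 11 genes examined, all were listed and 4 passed the filter. Fabp1, Fabp9 and Rbp2 were listed at 0 in all 4 libraries, and Fabp2, Fabp4, Fabp6 and Pmp2 stayed below 1 FPKM. All 4 genes that passed were past 2-fold at both ages, 2 higher and 2 lower in pHes1_EPCs. They entered through the library in which each was high, so this count is not set against the background.

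Fabp12 and Crabp1 were on the side of Fabp7. Fabp12, a fatty acid-binding gene known from retina and testis, had an FPKM of 2.74, 0.182, 13.8 and 3.52 in P1 pHes1_ENCs, P1 pHes1_EPCs, P4 pHes1_ENCs and P4 pHes1_EPCs. Its log2 differences between the fractions were -1.66 at P1 and -1.71 at P4, and it was higher at P4 by 1.98 in pHes1_ENCs and by 1.93 in pHes1_EPCs. At these low levels the pseudocount narrows the first of these gaps: the ratio of FPKM, pHes1_ENCs to pHes1_EPCs, was 15.1 at P1 (8.06 to 42.8) and 3.92 at P4 (2.93 to 5.09), so the ratio was smaller at P4 for Fabp12 as it was for Fabp7. Crabp1 had 267, 7.64, 30.5 and 8.36 FPKM in the same order. Its differences of -4.95 and -1.75 were close to those of Fabp7, but the smaller gap at P4 came from pHes1_ENCs, where P4 minus P1 was -3.09, and not from pHes1_EPCs, where it was 0.12.

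Rbp7 and Crabp2 were on the opposite side. Rbp7, a retinol-binding carrier gene, had at most 0.186 FPKM in pHes1_ENCs and 3.41 and 6.59 in pHes1_EPCs at P1 and P4, log2 differences of 1.89 and 2.79. Crabp2 had 4.69 and 18.0 FPKM at P1 and 0.394 and 3.26 at P4, differences of 1.74 and 1.61, and was lower at P4 in both fractions.

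**Figure D4:**
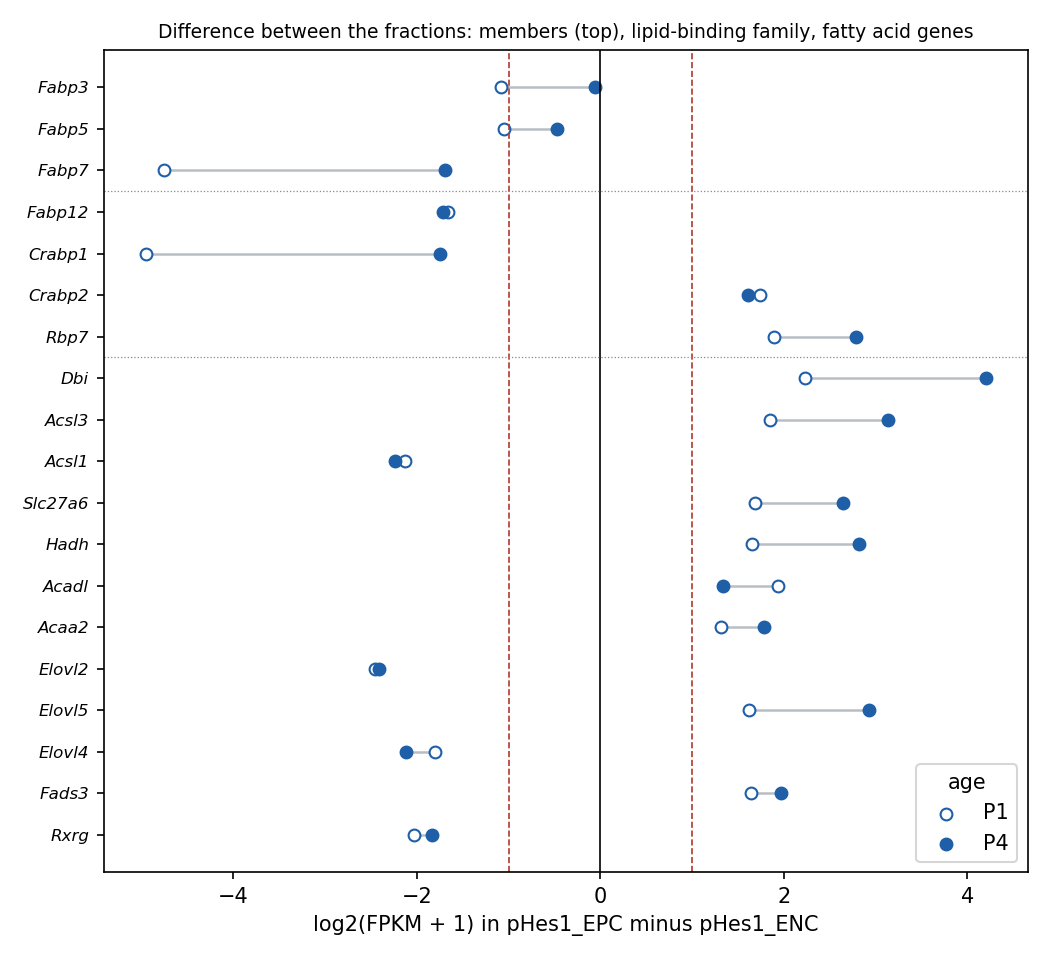
Difference in log2(FPKM + 1), pHes1_EPCs minus pHes1_ENCs (horizontal axis), at P1 (open circles) and P4 (filled circles) for the 3 members, the 4 family genes that passed the filter and the named fatty acid genes, with dashed lines at 2-fold. Fabp3, Fabp5 and Fabp7 all lie left of 0 and closer to it at P4, Crabp1 lies near Fabp7 at both ages, and Dbi reaches 4.20 on the right.

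Genes that bring fatty acids into the cell and activate them act beside the binding proteins. Of 15 such genes 12 passed the filter, and at both ages 5 were past 2-fold higher in pHes1_EPCs, 3 lower and 4 neither. Over all genes, 10.3% were higher and 11.5% lower at P1, and 16.6% and 9.15% at P4. The list had a median difference of 0.60 at P1 and 0.55 at P4, beside 0.02 and 0.15 over all genes. Dbi, which encodes the acyl-CoA-binding protein, read 86.1 FPKM in P1 pHes1_ENCs and 407 in P1 pHes1_EPCs, with 83.9 and 1557 FPKM in the P4 pair. At P4 its level in pHes1_EPCs was thus well above the 235 FPKM of Fabp7, and in pHes1_ENCs well below the 760 of Fabp7. In the same order of fractions, Acsl3, a long-chain acyl-CoA synthetase gene, read 56.9 and 208 at P1 and 37.6 and 337 at P4. Acsl1, a gene of the same enzyme family, had the opposite order, with 15.9 and 2.86 at P1 and 45.5 and 8.89 at P4. Slc27a6, a fatty acid transporter gene, had differences of 1.68 at P1 and 2.65 at P4.

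For beta-oxidation, the breakdown of fatty acids in mitochondria, all 20 listed genes passed the filter. At P1, 4 were past 2-fold higher in pHes1_EPCs and 0 lower, and at P4 4 were higher and 1 lower. The share higher was 20% at each age, beside 10.3% of all genes at P1 and 16.6% at P4, and the medians of 0.02 and 0.20 were near the 0.02 and 0.15 of all genes. Hadh, which encodes a dehydrogenase of this pathway, had differences of 1.65 and 2.82. The values for Acadl were 1.94 and 1.34 and those for Acaa2 1.31 and 1.78.

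Of 20 genes for synthesis, desaturation and elongation 17 passed the filter, and 3 were past 2-fold higher and 2 lower in pHes1_EPCs at P1, against 5 higher and 2 lower at P4. The same shares over all genes were 10.3% higher and 11.5% lower at P1, and 16.6% and 9.15% at P4. The medians of 0.51 and 0.20 stood beside 0.02 and 0.15 over all genes. Elovl2 and Elovl4, elongases of very long polyunsaturated fatty acids, were on the side of Fabp7. Elovl2 had 45.8 and 7.55 FPKM in pHes1_ENCs and pHes1_EPCs at P1 and 115 and 20.7 at P4, and Elovl4 had 49.5 and 13.5 at P1 and 172 and 38.7 at P4. Elovl5, an elongase of shorter polyunsaturated fatty acids, was on the other side, with 18.1 and 57.6 at P1 and 6.38 and 55.0 at P4. Fads3, a desaturase-like gene, had differences of 1.65 and 1.97.

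The last list holds nuclear receptors that bind fatty acids, their partners and coactivators. Of 8 genes 7 passed, 0 were past 2-fold higher at either age, and 1 was lower at P1 and 3 at P4. Over all genes 11.5% and 9.15% were lower, and the list had medians of 0.00082 and -0.90. Of those lower at P4, Ppara and Ppargc1b passed the filter only through P4 pHes1_ENCs, at 3.71 and 3.44 FPKM. The filter thus favoured the P4 count and median, which are not read against the share of all genes. At P4 the count was 4 with either other pseudocount and with each of the 3 other scalings. Rxrg, a retinoid X receptor gene used by cone precursors, had 7.14 and 0.994 FPKM in pHes1_ENCs and pHes1_EPCs at P1 and 13.3 and 3.03 at P4, differences of -2.03 and -1.83. Ppard, whose product receives ligands from Fabp5, had 9.21 and 9.22 FPKM at P1 and 19.0 and 11.9 at P4.

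Over all lines the FPKM of a library summed to 342618 to 450080, with the highest sum in P4 pHes1_EPCs, and 11460 to 12110 genes reached 1 FPKM. The median log2 difference of all genes was 0.02 at P1 and 0.15 at P4 between the fractions, and -0.01 in pHes1_ENCs and 0.17 in pHes1_EPCs between the ages. All 8 proliferation genes listed were past 2-fold higher in pHes1_EPCs at both ages, beside 10.3% of all genes at P1 and 16.6% at P4. Red cell genes summed to 108 and 322 FPKM in the EGFP-negative libraries at P1 and P4 and to 0.306 and 3.79 in the EGFP-positive ones. Pigment epithelium genes summed to 82.8 FPKM in P4 pHes1_EPCs, against 3.39 to 7.42 in the other libraries. In P4 pHes1_EPCs Pmel read 36.5, Ttr 23.1, Dct 15.0, Tyrp1 5.64, Mlana 2.08 and Rpe65, which defines that epithelium, 0.422. Microglia genes summed to at most 9.99 FPKM and lens genes to at most 1.21. The part of these cells in the levels of Fabp3, Fabp5 and Fabp7 was not tested.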

How the data were processed

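Gene expression was measured by RNA-seq in 4 libraries of sorted retinal cells, 1 for each fraction at each age, and libraries were grouped by their labels. The authors ran TopHat2 2.0.8b on the 36-base single-end reads, with NCBI37/mm9 as the reference, and deposited the FPKM that Cufflinks 2.1.1 estimated with default options, together with a 95% interval, and these FPKM were used as deposited. The submitters' processing notes also name bcl2fastq 1.8.4. Read counts and alignments were not used here.

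Each table held 23021 lines. Small RNAs (783 lines) were left out, and of 235 symbols with repeated lines the most abundant line was taken. Differences were taken on the log2(FPKM + 1) scale, with a pseudocount of 1, and ranges come from the Cufflinks intervals, which cover counting error only. With 1 library per group no test was run. Scripts ran in Python 3.11.15 (pandas 2.3.3, numpy 2.4.6, matplotlib 3.10.9) and were tested on simulated data. Copies of transcripts were searched with BLAST+ 2.17.0 and coding sequences aligned with MAFFT 7.526. Sequences and promoters come from the mm9 genome, its annotation and the RefSeq promoter table of GRCm38.p6, in which 2 of the 3 members were matched.

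The members were always named. Also named were family genes that reached 1 FPKM in 1 library or more, up to 4 genes of each other fatty acid list that were past 2-fold in the same direction at both ages with the largest mean difference, and the 3 genes nearest in pattern to each member. Ppard and the marker genes were named beside results that turn on them. 1 gene of the fixed family list is not reported here. The members and lists were chosen with earlier results of these data known. Alternatives changed the pseudocount, the scaling, the filter, the status and the handling of repeated symbols, and interval midpoints were added after the data were seen.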

Additional observations from a re-analysis of the deposited data

Results flagged for a closer look

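The difference of Fabp5 between P4 and P1 on the log2(FPKM + 1) scale was -0.18 in pHes1_ENCs and 0.40 in pHes1_EPCs. It is listed because the 2 fractions differ in sign under the same comparison. With 1 library in each group the difference between the fractions was not tested. Both signs were kept under every scaling and pseudocount tried, with values of -0.35 and 0.12 under quantile normalization.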

How the results depend on the processing

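No paired analysis was run. Each group holds 1 library, and pairing the fractions within each age would leave the change of their gap between ages as the only measure of error. With 1 library per group, no replicate could be left out either. Of the values of Fabp3, Fabp5 and Fabp7 under the alternatives, 69 moved by less than the Cufflinks intervals allow and 15 by more. The 69 include the values with repeated lines summed, which were equal to the main values for every member and so say nothing of stability. With a pseudocount of 0.1 and with none, Fabp3 gave -1.94 and -2.15 for the fractions at P1 and -1.80 and -1.98 for the ages in pHes1_ENCs, because a pseudocount of 1 is large beside its FPKM. At P4, Fabp5 gave -0.79 with the same FPKM total in each library, -0.67 with median-of-ratios scaling and -0.75 with quantile normalization, and Fabp7 gave -2.02, -1.89 and -1.95. Quantile normalization gave -5.12 for Fabp7 at P1, 3.06 and -0.11 for its ages in pHes1_EPCs and pHes1_ENCs, and 0.12 and -0.35 for those of Fabp5. The same FPKM total moved the median of all genes from 0.15 to -0.13 between the fractions at P4 and from 0.17 to -0.07 between the ages in pHes1_EPCs. Family genes past 2-fold lower at P4 numbered 2, and 4 with a pseudocount of 0.1. Genes of the receptor list past 2-fold lower at P1 numbered 1, and 2 with a pseudocount of 0.1, with none or with the same total. Without a pseudocount 1 gene of that list was higher at each age, against 0. Genes of beta-oxidation past 2-fold lower at P4 numbered 1, and 2 with the same total. Of the 3 nearest genes, 0 were shared for each member after division by the standard deviation. Depth limits Fabp3 most, whose interval reaches 76.5% to either side of its midpoint at the most, against 2.52% for Fabp7 at the least. The causes of these shifts beyond the pseudocount were not tested.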
